A study of Mus musculus with 9 samples.

Results

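The genes that encode the tubulins and the enzymes that add side chains to tubulin or remove them were examined in the testis of mice with and without Pfn3, which encodes a testis-specific profilin. They were taken by name, as every protein-coding gene of the deposited table whose symbol starts with Tuba, Tubb, Tubg, Tubd, Tube, Ttll or Agbl followed by a digit. This gave 37 genes of 38674, namely 7 α-tubulins, 8 β-tubulins, 4 γ-, δ- and ε-tubulins, 13 tubulin tyrosine ligase-like genes (Ttll) and 5 ATP/GTP-binding carboxypeptidase-like genes (Agbl). No measured value entered this choice. The libraries came from whole testis of sexually mature C57BL/6 males, with 3 samples of each genotype, Pfn3+/+ (WT), Pfn3+/- (Het) or Pfn3-/- (KO), and the labels name no agent. The deletions had been made with CRISPR/Cas9 in several lines, and which line gave the RNA is not given in the sources used here. The labels number the samples but do not tie them to separate animals, so the p-values measure the spread between these samples.

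Microtubules are built from dimers of one α- and one β-tubulin, and γ-tubulin starts their growth, while δ- and ε-tubulin belong to centrioles and basal bodies. In the male germ line microtubules form the meiotic spindle, then the manchette, a skirt of microtubules around the nucleus of the elongating spermatid, and then the axoneme of the sperm tail. Enzymes of the Ttll family add glutamate or glycine side chains to the tails of α- and β-tubulin, and the Agbl enzymes, also called cytosolic carboxypeptidases, take glutamates off again. The study stained the manchette for α-tubulin, and the RNA data give the level of each tubulin gene and of each of these enzymes in the same genotypes.

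The modified tail of each tubulin is written in the last codons of its gene, so the coding ends of the α- and β-tubulins with the most reads, and of an α-tubulin that lacks the last tyrosine, are shown. Each is the last 9 codons and the stop codon, 30 coding bases in the last exon, read from the GENCODE vM21 transcripts on GRCm38, with the last codon before the stop in capitals.

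Tuba3b (chr6:145621358-145621387, plus strand): gcagaggcagaagaaggggaggagTACtga

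Tuba3a (chr6:125278358-125278387, minus strand): gcagaggcagaagaaggggaggagTACtga

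Tuba8 (chr6:121226050-121226079, plus strand): gaagaagagaatgagggggaggaaTTTtaa

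Tuba1b (chr15:98931582-98931611, minus strand): gagggggaggaagaaggagaggagTACtaa

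Tuba4a (chr1:75215622-75215651, minus strand): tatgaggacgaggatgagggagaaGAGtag

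Tubb4b (chr2:25222308-25222337, minus strand): gaggaggaggctgaggaggaggtgGCTtag

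Tubb5 (chr17:35834982-35835011, minus strand): ttcggagaggaggcagaagaggagGCCtaa

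Of the 7 α-tubulin genes, 5 ended in a tyrosine codon (Tuba1a, Tuba1b, Tuba1c, Tuba3a and Tuba3b), Tuba8 ended in a phenylalanine codon and Tuba4a ended in a glutamate codon. Tuba3a and Tuba3b, which lie on the same chromosome 20329715 bases apart, had identical coding ends, and their coding sequences differed at 41 of 1353 bases. Glutamate codons, the residues to which side chains are attached, made up 6 (Tuba1c) to 10 (Tubb4b) of the last 20 codons in the 14 α- and β-tubulin genes read. Tubb4b and Tubb5 ended in an alanine codon.

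The libraries were made with the QuantSeq kit, which reads near the 3′ end of polyadenylated transcripts, so a count stands for about 1 transcript and is not divided by gene length. The values are read counts divided by 1 size factor per sample and are called normalized counts here. The reads on genes recovered from these values, 3375546 to 4287335 per sample, are estimates. Detection was taken to need over 3 reads, which equal 2.58 to 3.71 normalized counts, and this limit covers counting error only. Pfn3 had 592, 383 and 373 normalized counts in the WT samples, 136, 339 and 326 in the Het and 74.7, 215 and 279 in the KO samples, so that its transcript was still counted in KO. WT replicate 1 had the fewest reads and stood apart. It held the highest of the 9 values for 14 of the 36 genes of the set with any signal, and for 26.1% of all genes with a mean of at least 10. Each list of germ cell markers had counts in every sample, but not each single marker did. Among those below the limit, Uchl1 was at 0 in Het replicate 1 and Spo11 at 0.89 in KO replicate 3. The 4 epididymis markers (Defb20, Lcn5, Adam28 and Crisp1) summed to at most 8.69 normalized counts.

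The α-tubulin pool was dominated by a pair of testis-specific genes. Tuba3b had 12968, 8947 and 8866 normalized counts in the WT samples, 10533, 8884 and 8679 in the Het and 8767, 10363 and 9465 in the KO samples. Tuba3a had 6698, 7249 and 6598 normalized counts in the WT samples, 5499, 6475 and 5519 in the Het and 5809, 6187 and 5798 in the KO samples. Together they held 84.9% to 88.5% of the α-tubulin counts of each sample. At the 3′ end of their transcripts, 70.9% of the stretches of 50 bases of Tuba3b and 59.4% of those of Tuba3a also occur in transcripts of other genes, chiefly each other, so the division of reads between the pair is uncertain. The sum of the pair ranged from 14198 to 19666 normalized counts.

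The other α-tubulins followed at a distance. Tuba8, an α-tubulin known from testis, heart and skeletal muscle, averaged 1174 ± 184 normalized counts in WT (SD, n = 3). The broadly expressed Tuba1b had 549 to 661, Tuba1a 385 to 546 and Tuba1c 340.1 to 1024 normalized counts over the 9 samples. In the order by mean these 3 ran Tuba1b, Tuba1c, Tuba1a, and each neighbouring pair overlapped. At the 3′ end, 34.7% of the stretches of 50 bases of Tuba1b, 43.0% of Tuba1c and 21.5% of Tuba1a also occur in transcripts of other genes. These include genes of the same 3, so the division of reads between them is uncertain. Tuba1b and Tuba1a were also among the steadiest genes of the set, with the highest sample at most 1.42 times the lowest. Tuba4a, which ends in a glutamate codon, had 6.61 to 31.0 normalized counts.

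Among β-tubulins, Tubb4b stood far above the rest. Tubb4b, the β-tubulin most often linked to axonemes, had 6363, 4701 and 4229 normalized counts in the WT samples, 2481, 3914 and 3178 in the Het and 3309, 2243 and 3216 in the KO samples. It held 76.0% to 90.3% of the β-tubulin counts of each sample. Tubb5, found in most dividing cells, came next with 446, 330 and 320 normalized counts in the WT samples, 454, 285 and 342 in the Het and 297, 479 and 350 in the KO samples, and its genotypes overlapped. Tubb6 had 87.1 to 229.6, Tubb3, known from neurons, 48.7 to 87.1, Tubb2a 26.0 to 72.6 and Tubb2b 0 to 13.5 normalized counts. Tubb4a, a brain β-tubulin, passed 3 reads in 1 sample, and Tubb1, the β-tubulin of platelets, had 0 reads in all 9, which allows up to 3 reads per library.

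The remaining tubulins were minor. Tubg1, the main γ-tubulin, had 108 to 245 normalized counts, Tubd1 7.43 to 184 and Tube1 21.2 to 38.7, and Tubg2 passed 3 reads in 4 samples with at most 17.3 normalized counts.

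**Figure D1:**
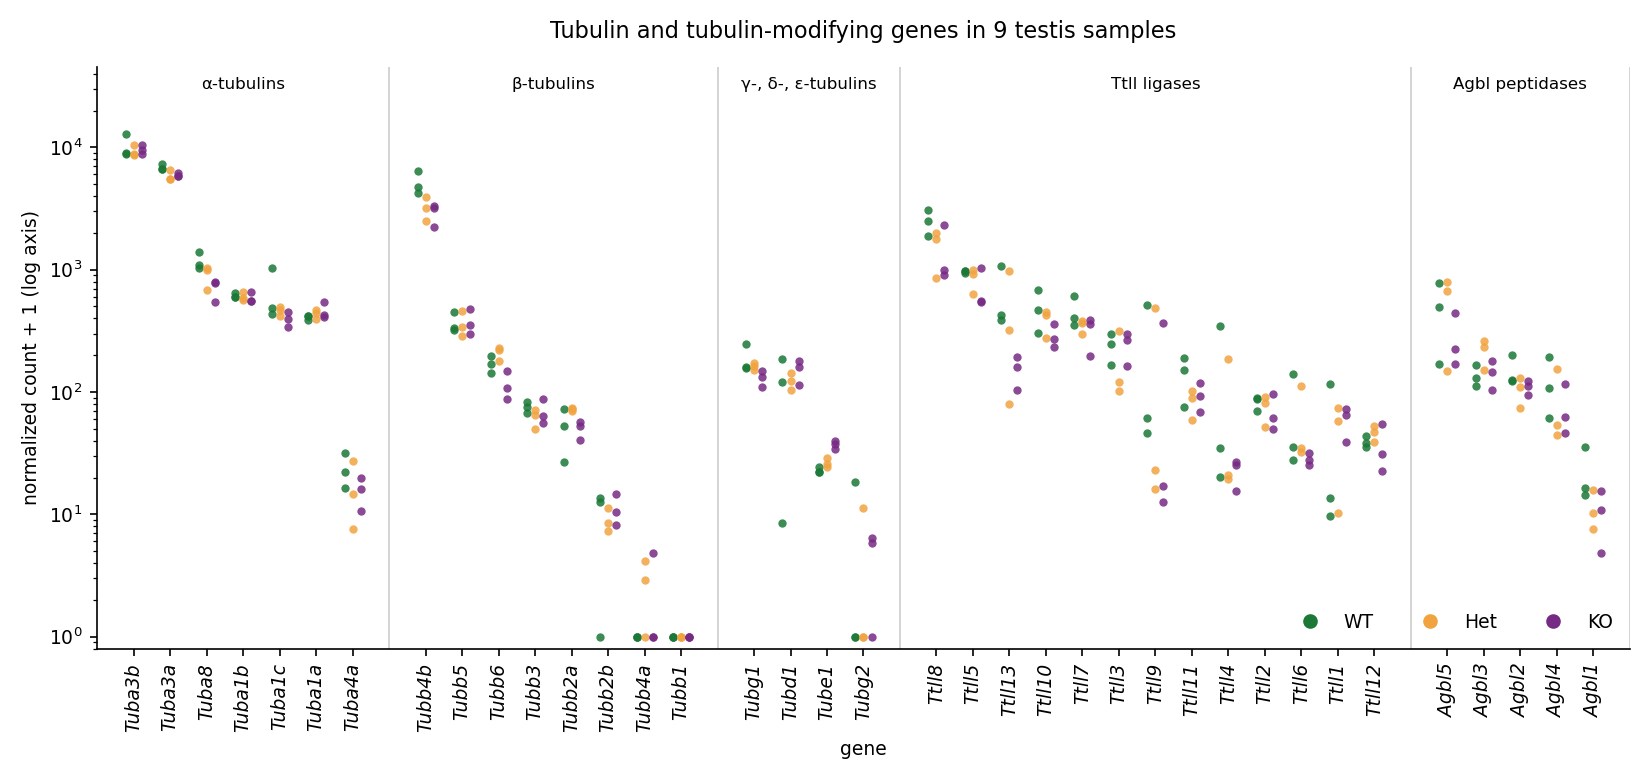
Normalized count + 1 on a log axis (y) of each of the 37 genes (x), ordered by mean within α-tubulins, β-tubulins, other tubulins, Ttll ligases and Agbl peptidases, with 1 point per sample (WT green, Het orange, KO purple). Tuba3b, Tuba3a and Tubb4b have the highest means, Tubb1 is at 0 in all 9 samples, and Ttll9, Ttll4 and Tubd1 have points that lie far from the others.

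Among the side chain enzymes, the glycine ligase Ttll8, which attaches the first glycine, had the most reads, with 3092, 2514 and 1888 normalized counts in the WT samples, 847, 1979 and 1783 in the Het and 995, 2299 and 903 in the KO samples. It held 30.9% to 50.8% of the Ttll counts of each sample. Ttll3, the other ligase that attaches a first glycine, had 102 to 315 normalized counts, and the level of Ttll8 was 3.75 to 17.6 times that of Ttll3. Ttll10, which lengthens glycine chains, had 230.2 to 677 normalized counts.

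Of the 8 glutamate ligases, Ttll5, whose loss impairs sperm motility in mice, had the highest mean over the 9 samples, although Ttll13 lay above it in WT replicate 2 and Het replicate 2. It had 983, 942 and 972 normalized counts in the WT samples, 627, 919 and 991 in the Het and 552, 1037 and 544 in the KO samples. The WT samples lay close together, and the Het and KO samples spread more widely. Ttll7, a glutamate ligase that prefers β-tubulin, had 196 to 609, Ttll11 57.6 to 189 and Ttll6 24.1 to 140.0 normalized counts. Ttll2 (48.4 to 94.7) and Ttll12 (21.5 to 54.2), whose activities are less settled, were low.

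Agbl5, the carboxypeptidase that removes the glutamate at the branch point, had the highest mean of its family, with 778, 499 and 170 normalized counts in the WT samples, 146, 669.5 and 797 in the Het and 437, 168 and 224 in the KO samples. Agbl3, which shortens glutamate chains, had 130, 110 and 165 normalized counts in the WT samples, 259, 149 and 231 in the Het and 177, 104 and 145 in the KO samples. Agbl2, which also shortens them, had 201, 123 and 122 normalized counts in the WT samples, 72.8, 108 and 128 in the Het and 121, 93.8 and 111 in the KO samples. Agbl3 lay above Agbl5 in Het replicate 1, and Agbl4 did so in WT replicate 3. Agbl5 varied over a wider range than the other 2, and the genotypes overlapped in all 3 of these genes except Agbl2 between KO and WT, where the lowest WT and the highest KO sample nearly met. Agbl4 had 43.5 to 192 and Agbl1 3.87 to 34.7 normalized counts.

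The first question was whether the loss of Pfn3 went with a change in any of these genes. limma was fitted on log2(normalized count + 1) of the KO and WT samples over all 14223 genes for which 3 or more of the 6 samples reached a value of 10, with Benjamini-Hochberg adjustment. Fold changes are given on this log2 scale, where the added 1 shrinks those of low genes. A gene was taken as differentially expressed (DE) by the study's cutoffs, an adjusted p under 0.05 with an absolute log2 fold change above 1.5. The study applied these cutoffs to DESeq2, whereas limma is the main test here and DESeq2 an alternative, so the calls are not those of the study. Of the 37 genes, 34 passed the filter, and Tubb1, Tubb4a and Tubg2 did not. None of the 34 was a DE gene by limma (0 of 34, against 0.0352% of all genes tested), and the smallest adjusted p by limma was 0.583. At an unadjusted p under 0.05, 3 genes of the set were lower in KO (Tubb4b, Tuba8 and Ttll13), where 5.03% of all genes tested were, and 1 was higher (Tube1), where 3.04% were. Each KO sample lay below each WT sample for 6 genes of the set (Tubb4b, Tuba8, Tuba3a, Tubg1, Ttll13 and Agbl2), while 10.5% of all genes tested had this pattern, and above for 1 (Tube1), against 9.41%.

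Most of the set had lower values in KO without passing the test. In KO against WT, log2 fold changes were below 0 for 25 of the 34 genes, with a median of -0.51, while over all genes tested the median was 0.02 and 48.6% were below 0. Without WT replicate 1, 27 of 34 were below 0 and the median was -0.29, beside -0.03 over all genes, and without WT replicate 3 the median was -0.24, with 26 of 33 below 0. Leaving out each of the other 4 samples gave medians of -0.51 to -0.37. By role, 6 of 7 α-tubulins were lower (median -0.21), 3 of 6 β-tubulins (median -0.06), 7 of 8 glutamate ligases (median -0.72), 2 of 3 glycine ligases (median -0.69), both other Ttll genes (median -0.26) and 4 of 5 carboxypeptidases (median -0.64). Of the γ-, δ- and ε-tubulins, 1 of 3 was lower (median 0.70). Agbl1, which passed the filter because all WT samples reached 10, is among those counted. No test was made of these medians.

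**Figure D2:**
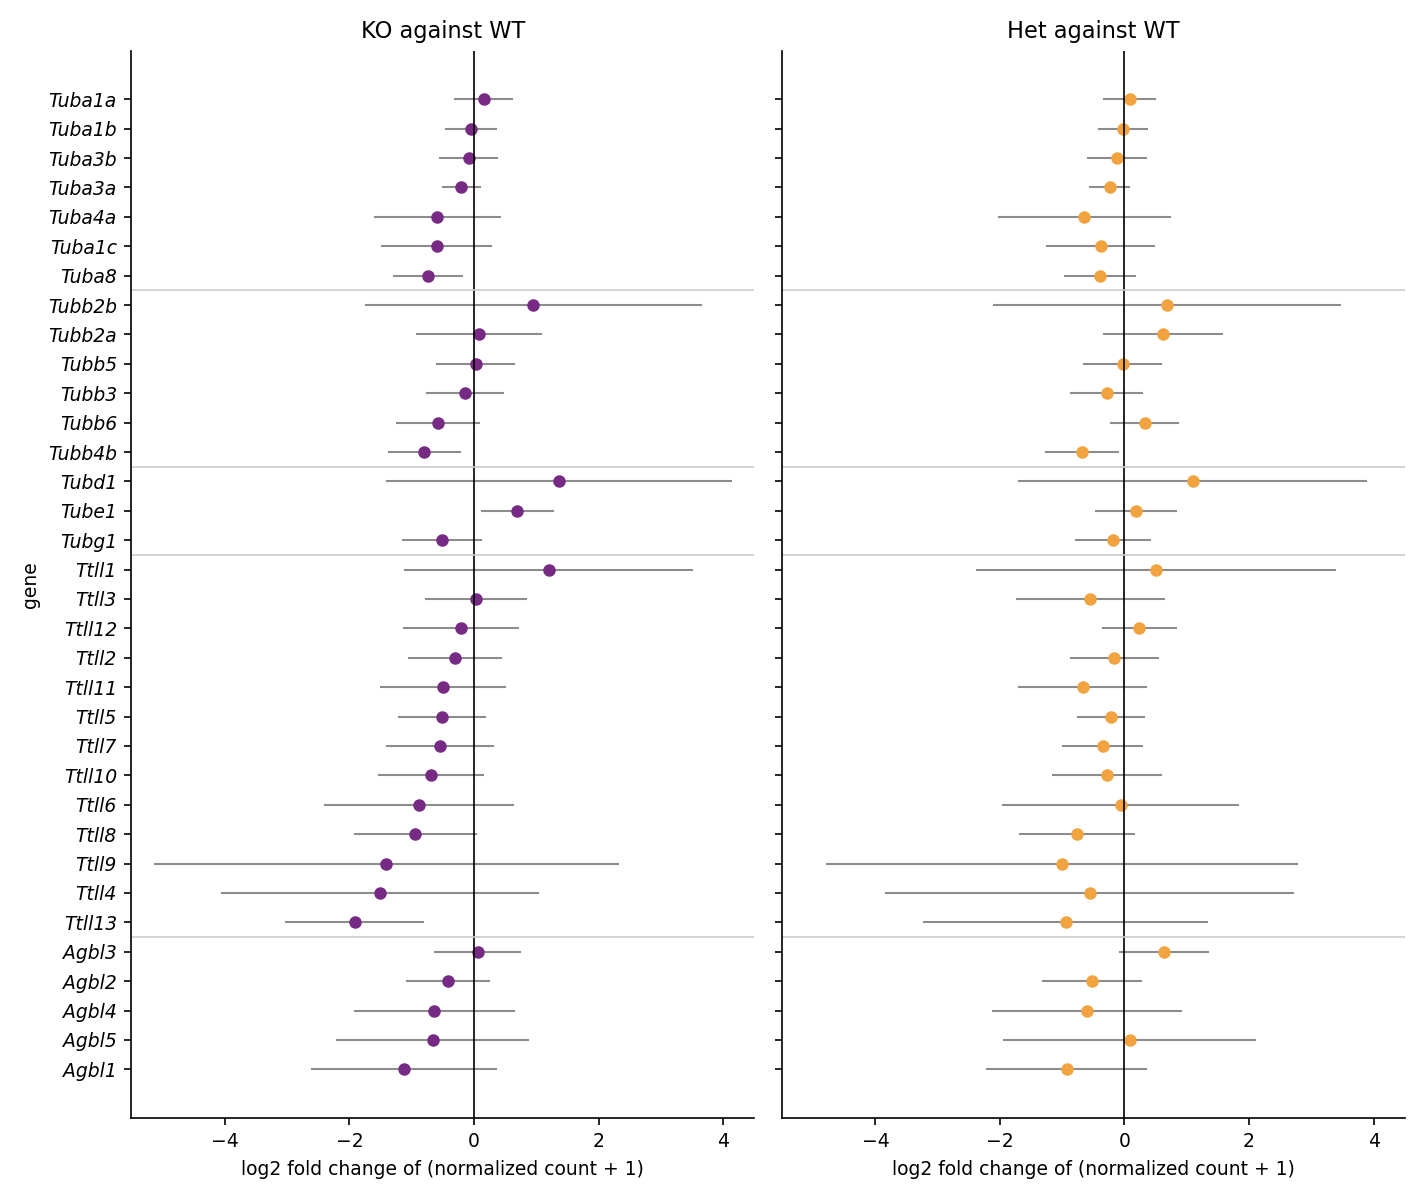
Log2 fold change of normalized count + 1 (x) for each gene of the set that was tested (y), in KO against WT (left, purple) and Het against WT (right, orange), with grey lines for the 95% confidence interval of the limma fit and horizontal lines between gene classes. Both panels use the same WT samples. In the left panel the intervals of Tubb4b, Tuba8 and Ttll13 lie below 0 and that of Tube1 lies above 0, before adjustment.

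Tubb4b and Tuba8 had the clearest pattern among the tubulins. For Tubb4b, each Het and each KO sample lay below each WT sample, at 5098 ± 1121 normalized counts in the WT samples, 3191 ± 716 in the Het and 2923 ± 590.4 in the KO samples (SD, n = 3 each). Between KO and WT this is a log2 fold change of -0.80 (standard error 0.24, 95% confidence interval -1.37 to -0.23, limma adjusted p = 0.610). Tuba8 had 1384, 1039 and 1099.7 normalized counts in the WT samples, 680.3, 1033 and 987 in the Het and 776, 548 and 798 in the KO samples. Its groups also did not overlap between KO and WT, although the highest Het sample reached almost the lowest WT sample. Tuba8 had a log2 fold change of -0.74 in KO against WT (standard error 0.22, 95% confidence interval -1.28 to -0.20, limma adjusted p = 0.610). Both genes kept their sign without each sample in turn, with log2 fold changes of -0.93 to -0.62 for Tubb4b and -0.84 to -0.57 for Tuba8.

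Markers of elongating spermatids, which build the manchette and the tail, also had lower values in KO. The summed normalized counts of 6 such markers (Tnp1, Tnp2, Prm1, Prm2, Odf1 and Akap4) were 241402 to 256634 in the WT samples, 183452 to 223058 in the Het and 126612 to 203878 in the KO samples, and 6 of 6 had a log2 fold change below 0 in KO against WT (median -0.84). By limma 0 of the 6 were DE genes (0.0352% of all genes tested). At an unadjusted p under 0.05, 3 were lower, where 5.03% of all genes tested were. Each KO sample lay below each WT sample for 4 of the 6, against 10.5%. Akap4 was high in some samples of each genotype and low in the others (45.8 to 2573 normalized counts). The study compared cell type markers, transition proteins and protamines among them, and reported no significant difference between genotypes. From these markers it took sperm cell quantity and development to be unaffected. Separately, it counted significantly fewer sperm in Het and KO males and described defects of the acrosome and manchette in KO. The 6 round spermatid markers summed to 4412 to 5812 in the WT samples, 4293 to 4911 in the Het and 3211 to 3979 in the KO samples, and the 6 spermatocyte markers to 3774 to 4878, 3912 to 6126 and 5442 to 6579. In KO against WT, 4 of the 6 round spermatid markers had a log2 fold change below 0 and 2 above 0 (median -0.29). All 5 spermatocyte markers tested were above 0 (median 0.65), where 48.6% of all genes tested were below 0. The part of these shifts in the values of the tubulin genes was not tested. In whole testis, fewer cells of a type and less RNA per cell cannot be told apart. For Tubb4b, 30.3% of the stretches of 50 bases at the 3′ end also occur in transcripts of other genes, among them Tubb4b-ps1 and Tubb4b-ps2, and for Tuba8 0% occur in any other gene.

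The log2 fold changes of the other α-tubulins differed from gene to gene. Tuba3b had a log2 fold change of -0.09 in KO against WT (95% confidence interval -0.55 to 0.37, limma adjusted p = 0.862), and its sign turned without WT replicate 1 (0.095). For Tuba3a it was -0.21 (95% confidence interval -0.50 to 0.09, limma adjusted p = 0.637), and each KO and each Het sample lay below each WT sample. For Tuba1b it was -0.06 (95% confidence interval -0.46 to 0.35) and for Tuba1a 0.16 (95% confidence interval -0.30 to 0.62). A log2 decrease as large as that measured for Tubb4b lay outside these 4 intervals. It lay within those of Tuba1c, with a log2 fold change of -0.60 (95% confidence interval -1.48 to 0.27), and Tuba4a, with -0.59 (95% confidence interval -1.59 to 0.42). The interval of Tubb4b itself, -1.37 to -0.23, overlapped all of these intervals, and no difference between genes was tested.

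Summed over the family, the β-tubulin genes had 5762 ± 1140.0 normalized counts in the WT samples, 3903 ± 656 in the Het and 3541 ± 511 in the KO samples (SD, n = 3 each). The α-tubulin genes had 19968 ± 2784 in the WT samples, 17603 ± 839.9 in the Het and 17626.5 ± 1024 in the KO samples. The α-tubulin sum was 3.29, 3.48 and 3.70 times the β-tubulin sum in the WT samples, 5.59, 3.92 and 4.29 times in Het and 4.29, 6.33 and 4.62 times in KO. All 3 WT samples thus had the lowest ratios of the 9. These sums rest mainly on Tuba3a, Tuba3b and Tubb4b, and no test was made of them.

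**Figure D3:**
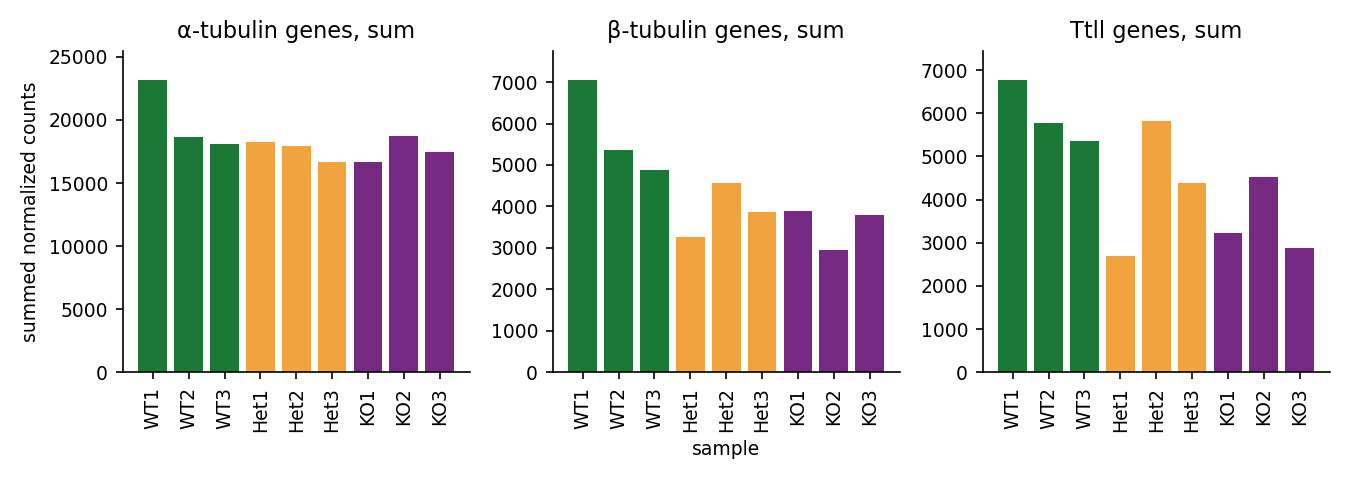
Summed normalized counts (y, from 0) of the α-tubulin genes (left), the β-tubulin genes (middle) and the Ttll genes (right) in each sample (x, genotype and replicate number, WT green, Het orange, KO purple). The β-tubulin sums of the Het and KO samples are all below those of the WT samples, while the α-tubulin sums of the genotypes overlap.

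Tube1, which encodes ε-tubulin, was the gene of the set with higher values in KO at an unadjusted p under 0.05. It had 23.5, 21.2 and 21.2 normalized counts in the WT samples, 24.6, 27.9 and 23.3 in the Het and 33.5, 38.7 and 36.6 in the KO samples. Each KO sample lay above each WT and each Het sample. Against WT its log2 fold change in KO was 0.70 (standard error 0.24, 95% confidence interval 0.12 to 1.27, limma adjusted p = 0.610), on counts that lay close to the filter. The unadjusted p of Tube1 was 0.025 by limma, 0.020 by edgeR, 0.065 by DESeq2 and 0.082 by limma with the replicate number as a block. Without each sample in turn the unadjusted limma p was 0.019 to 0.080, with log2 fold changes of 0.65 to 0.75. Fam229b, a far more abundant gene on the opposite strand 62 bases away, had 2086 to 9110.0 normalized counts, and its highest sample was WT replicate 1. Tubg1 had 245, 159 and 156 normalized counts in the WT samples, 150.2, 161 and 171 in the Het and 108, 146 and 131 in the KO samples, so that KO lay below WT and below Het in each sample (log2 fold change in KO against WT -0.52, limma adjusted p = 0.616, and -0.30 without WT replicate 1).

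**Figure D4:**
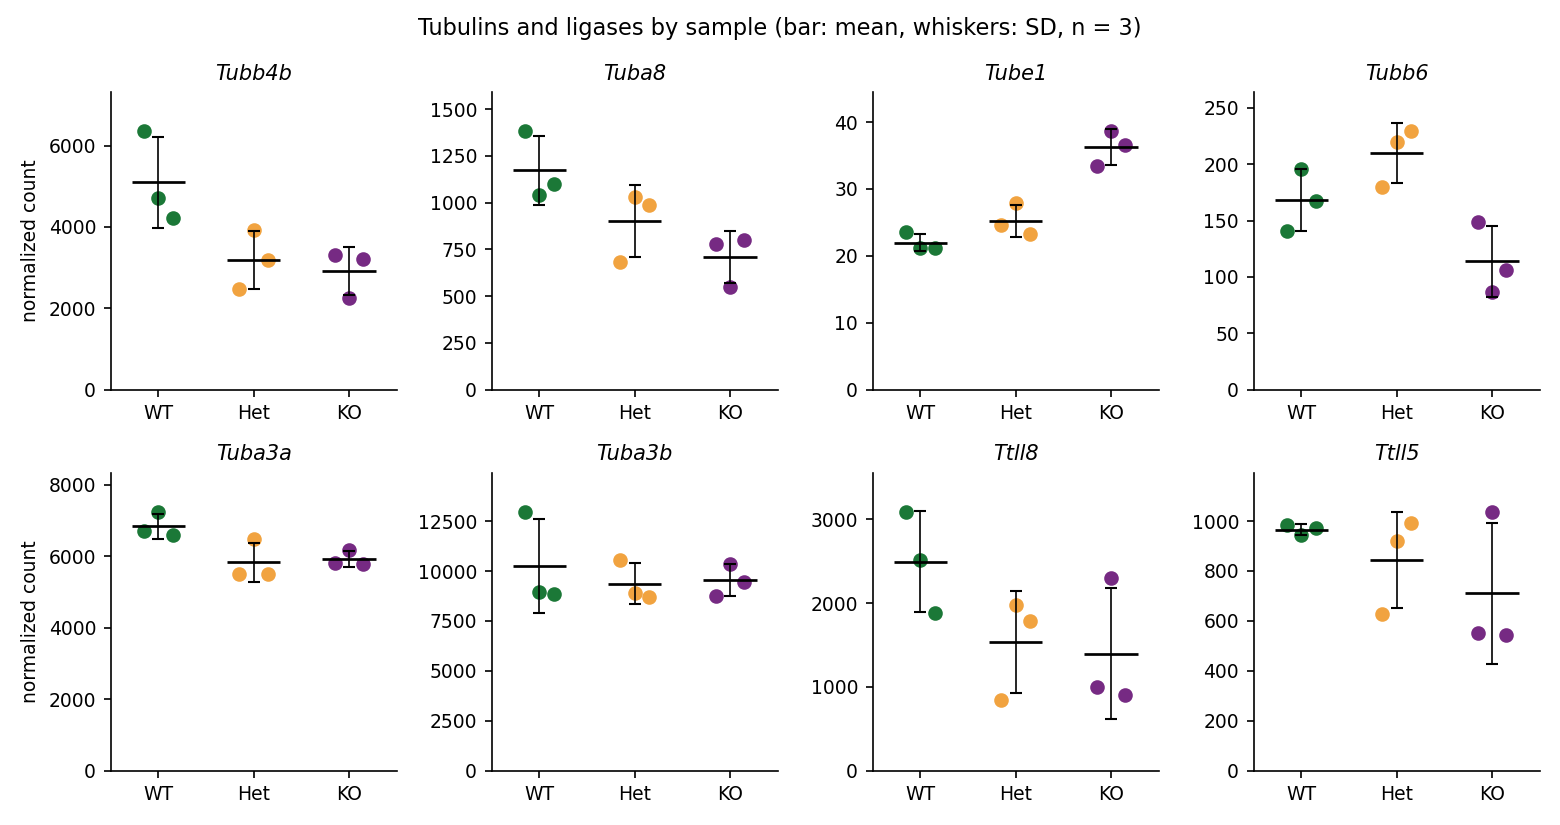
Normalized counts (y, from 0) of 8 genes of the set by genotype (x), with 1 point per sample, a horizontal bar at the mean and whiskers of 1 SD (n = 3). Tubb4b and Tuba8 are lower in each KO sample than in each WT sample, Tube1 is higher in each KO sample, Tubb6 is lower in each KO sample than in each Het sample, and Tuba3b, Ttll8 and Ttll5 overlap between the genotypes.

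Ttll13, a glutamate ligase, had the largest log2 fold change of the set by limma. Its values were 427, 1062 and 387 normalized counts in the WT samples, 78.4, 967 and 321 in the Het and 159.8, 104 and 194 in the KO samples. The KO samples lay below the WT samples, but the Het samples spanned nearly the whole range of both. KO against WT gave a log2 fold change of -1.92 (standard error 0.46, 95% confidence interval -3.02 to -0.81, limma adjusted p = 0.583). DESeq2's Wald test, run on recovered reads, gave -2.02 (adjusted p = 0.0154), and Ttll13 was then the only gene of the set past the cutoffs, where 0.703% of all genes tested were. With edgeR's quasi-likelihood test on the same reads it was -2.01 (adjusted p = 0.602). By both of these tests the log2 fold change of Ttll4 was larger, at -2.62 by DESeq2 (adjusted p = 0.381) and -2.58 by edgeR (adjusted p = 0.638). Without each sample in turn the log2 fold change of Ttll13 by limma ranged from -2.18 to -1.46, and its limma adjusted p was at least 0.441. The gene Ngrn lies 394 bases from Ttll13 on the same strand, and it had 53.2, 13.5 and 7.72 normalized counts in the WT samples, 74.6, 91.3 and 108 in the Het and 86.7, 111 and 76.0 in the KO samples, higher in each KO than in each WT sample. Since genes were counted on loci of a merged assembly, how reads near both genes were divided was not tested.

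Of the other side chain enzymes, the KO and WT samples overlapped for each one tested except Agbl2. Ttll8 had a log2 fold change of -0.94 in KO against WT (95% confidence interval -1.92 to 0.03, limma adjusted p = 0.610), and KO replicate 2 lay among the WT samples. The same sample also lay apart from the other 2 KO samples for Ttll5, whose log2 fold change was -0.51 (95% confidence interval -1.20 to 0.18, and -0.82 without that sample). For Ttll10 the log2 fold change was -0.69 (95% confidence interval -1.53 to 0.14) and for Ttll3 it was 0.03 (95% confidence interval -0.78 to 0.84). Agbl5 had a log2 fold change of -0.66 (95% confidence interval -2.20 to 0.87), Agbl2 -0.42 (95% confidence interval -1.07 to 0.24) and Agbl3 0.06 (95% confidence interval -0.63 to 0.74). Single samples moved these values. For Agbl5 the log2 fold change was -0.19 with WT replicate 1 left out, -1.29 with WT replicate 3, -1.05 with KO replicate 1 and -0.37 with KO replicate 2 left out. For Agbl2 it was -0.18 with WT replicate 1 left out. Reads of Agbl5 may be shared with Ost4, which overlaps it by 1081 bases on the opposite strand and had 0 to 1019 normalized counts.

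For several genes of the set the spread within a genotype was larger than the difference between the genotype means. Ttll9, a glutamate ligase needed for normal sperm tail beating, had 60.7, 45.3 and 516 normalized counts in the WT samples, 15.1, 489 and 22.2 in the Het and 366, 11.6 and 16.1 in the KO samples. In each genotype 1 sample was thus high and the other two were low, and the highest sample was 44.4 times the lowest. Ttll4, a glutamate ligase that starts side chains on β-tubulin, had 347, 33.8 and 19.3 normalized counts in the WT samples, 184, 18.6 and 20.1 in the Het and 14.6, 24.2 and 25.9 in the KO samples. Only WT replicate 1 and Het replicate 1 were high. Ttll1, the catalytic subunit of a glutamate ligase complex, had 115, 12.5 and 8.69 normalized counts in the WT samples, 56.7, 9.31 and 73.0 in the Het and 71.3, 37.7 and 64.3 in the KO samples, with WT replicates 2 and 3 and Het replicate 2 low. Tubd1, which encodes δ-tubulin, had 7.43, 184 and 119.7 normalized counts in the WT samples, 121, 142 and 104 in the Het and 177, 112 and 158 in the KO samples. WT replicate 1 alone was low, and without it the log2 fold change of Tubd1 in KO against WT went from 1.36 to -0.020. Without the same sample that of Ttll1 went from 1.20 to 2.31 (limma adjusted p = 0.189) and that of Ttll4 from -1.51 to -0.28. For Ttll9 it was -1.41, and it went to -0.32 without WT replicate 3 and to -2.96 without KO replicate 1. DESeq2 gave 0.55 for Tubd1, 0.36 for Ttll1 and -0.64 for Ttll9. For these 4 genes the 95% confidence intervals of KO against WT ran from -5.13 to 2.31 (Ttll9), from -4.05 to 1.03 (Ttll4), from -1.11 to 3.50 (Ttll1) and from -1.40 to 4.13 (Tubd1), so that a change of several fold could lie within each of them.

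**Figure D5:**
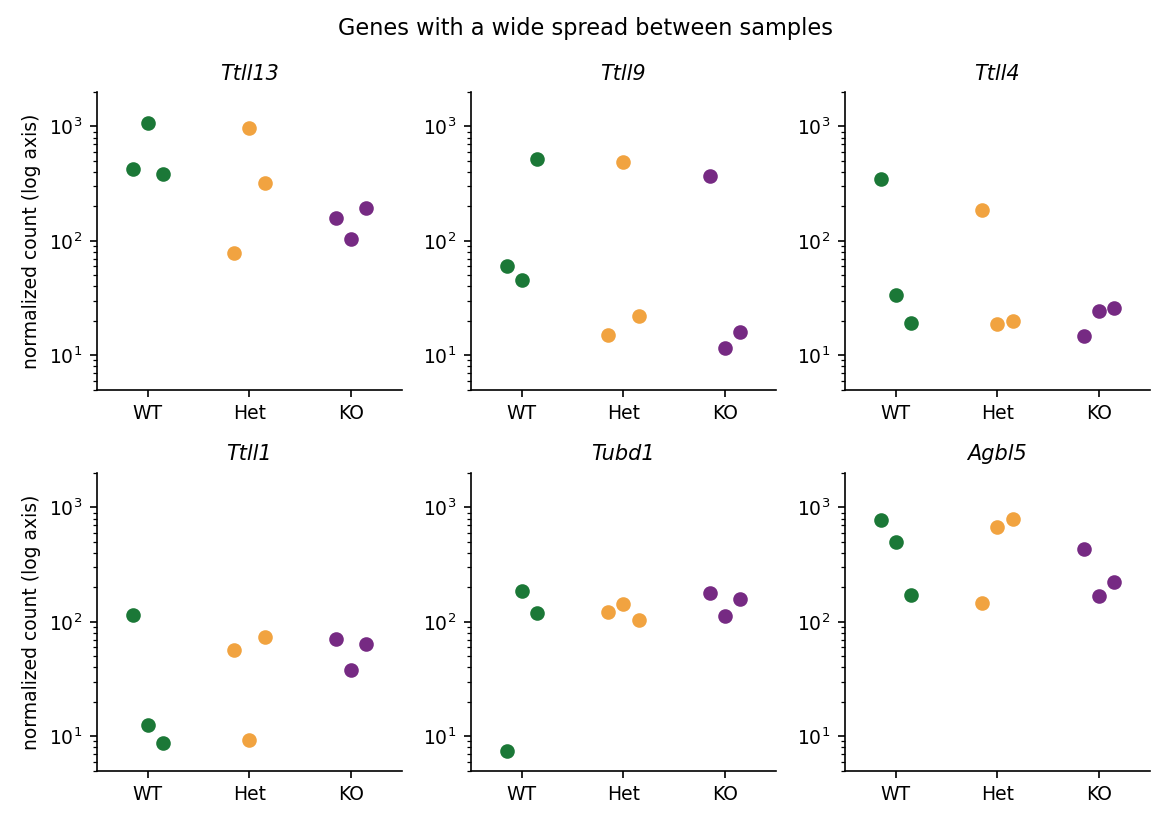
Normalized counts on a log axis (y) of 6 genes of the set by genotype (x), with 1 point per sample in the order of replicates 1 to 3 from left to right. Ttll9 has 1 high sample in each genotype, Ttll4 has 2 high samples in all, Tubd1 has 1 low WT sample, and the KO samples of Ttll13 lie below its WT samples.

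The Het samples showed whether loss of 1 allele went with the same differences. Of 14216 genes tested between Het and WT, 0 were DE genes by limma (0%), while 475 had an unadjusted p under 0.05 and DESeq2 with recovered reads called 31 (0.218%). None of the 34 genes of the set tested was called by either test. Below an unadjusted p of 0.05 lay 1 gene of the set that was lower in Het, Tubb4b (1.89% of all genes tested), and 0 that were higher (1.46%). In Het against WT, Tubb4b had a log2 fold change of -0.68 (standard error 0.24, 95% confidence interval -1.26 to -0.10, limma adjusted p = 0.779), beside -0.80 in KO against WT, and both values use the same WT samples. Each Het sample lay below each WT sample for 3 genes of the set (Tubb4b, Tuba8 and Tuba3a), against 6.49% of all genes tested, and above for 0, against 6.76%. In all, 24 of 34 genes of the set had a log2 fold change below 0, with a median of -0.23 beside 0.01 over all genes, which went to -0.36 without WT replicate 2 and to -0.12 without Het replicate 1. For Ttll13 the log2 fold change in Het against WT was -0.95 (95% confidence interval -3.22 to 1.32) and for Ttll8 it was -0.76 (95% confidence interval -1.68 to 0.15).

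Between KO and Het, 32 genes of the set were tested, since Tubb2b and Agbl1 also missed the filter. None was a DE gene by limma (0 of 32, against 0.0558% of 14343 genes) or by DESeq2 (0 of 32, against 0.265%), and the smallest adjusted p by limma was 0.973. At an unadjusted p under 0.05, 2 β-tubulins were lower in KO, where 1.82% of all genes tested were, and 0 genes of the set were higher, where 1.74% were. Tubb6, a β-tubulin of many tissues, had 141, 196 and 167 normalized counts in the WT samples, 179.5, 219.8 and 229.6 in the Het and 149, 87.1 and 106 in the KO samples, a log2 fold change of -0.90 in KO against Het (95% confidence interval -1.49 to -0.31, limma adjusted p = 0.973). Tubb2a had 26.0, 52.1 and 71.4 normalized counts in the WT samples, 71.8, 72.6 and 68.8 in the Het and 55.8, 39.7 and 51.8 in the KO samples, a log2 fold change of -0.54 (95% confidence interval -1.03 to -0.05, limma adjusted p = 0.973). For both genes the WT samples overlapped the KO samples. Each KO sample lay below each Het sample for 4 genes of the set (Tubb6, Tubb2a, Tubg1 and Ttll6), against 4.9% of all genes tested, and above for 1 (Tube1), against 5.12%. The median log2 fold change of the set was -0.16, with 20 of 32 genes below 0, beside -0.00 over all genes. It went to -0.34 without Het replicate 1, -0.078 without Het replicate 2 and -0.062 without KO replicate 3.

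Genes that act on tubulin outside these families were taken from lists of 58 genes, namely tubulin folding cofactors, the γ-tubulin ring complex, other tubulin modification genes, severing enzymes and microtubule-associated and end-binding proteins. Of these, 57 were in the table and 48 were tested between KO and WT, and 0 were DE genes by limma. Their log2 fold changes were above 0 for 22 and below 0 for 26, with a median of -0.07, where the median of all genes tested was 0.02 and 48.6% were below 0. At an unadjusted p under 0.05, 5 were lower, where 5.03% of all genes tested were, and 1 was higher in KO, where 3.04% were. The one with higher values was Tubgcp5, a subunit of the γ-tubulin ring complex, with 48.3, 27.0 and 25.1 normalized counts in WT and 53.3, 78.4 and 55.4 in KO (log2 fold change 0.92, limma adjusted p = 0.610). In that complex 7 of 8 genes tested had a log2 fold change above 0, with a median of 0.36, beside 51.4% and 0.02 over all genes tested. Tubgcp5 alone of them had an unadjusted p under 0.05. The medians of the other lists were -0.11 (folding cofactors), -0.10 (other modification genes), -0.28 (severing enzymes) and -0.28 (microtubule-associated and end-binding proteins). No test was made of these medians. Of the 48 genes, each KO sample lay below each WT sample for 10, against 10.5% of all genes tested, and above for 4, against 9.41%.

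The 5 with lower values in KO were Tpgs2, Map7, Camsap1, Camsap2 and Map1s. Tpgs2, a subunit of the glutamate ligase complex that holds Ttll1, had 1024, 786 and 830.4 normalized counts in the WT samples, 596, 789 and 802 in the Het and 591, 577 and 684 in the KO samples (log2 fold change -0.51). Map7, a microtubule-binding protein needed for normal manchettes in mice, had 756, 626 and 647 normalized counts in the WT samples, 460.1, 585 and 635 in the Het and 490.4, 377 and 533 in the KO samples (log2 fold change -0.54). For both genes each KO sample lay below each WT sample. The minus-end binding genes Camsap1 and Camsap2 and the gene Map1s had log2 fold changes of -1.17, -1.69 and -1.99, and in each the KO samples were spread widely. Camsap1 had 331, 277 and 296 normalized counts in WT and 87.6, 277 and 97.4 in KO. Its KO samples also lay below its WT samples, though the nearest almost met, at 276.7 and 276.9. Camsap2 had 209, 161 and 212 in WT and 44.7, 28.1 and 164 in KO. Map1s had 73.0, 48.2 and 58.9 in WT and 50.7, 9.67 and 5.36 in KO, and in both of these genes the KO and WT samples overlapped. None of the 5 passed the adjusted threshold by limma (adjusted p = 0.610 for each).

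Against WT, 49 of the listed genes were tested in Het, with 19 above and 30 below 0, where 49.5% of all genes tested were below 0. Of these, 0 had an unadjusted p under 0.05, where 1.46% of all genes tested were higher and 1.89% lower. Between KO and Het 49 were tested, with 24 above and 25 below 0, where 50.3% of all genes tested were below 0. At an unadjusted p under 0.05, 1 was lower in KO, where 1.82% of all genes tested were, and 0 were higher, where 1.74% were.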

How the data were processed

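Testis RNA of 3 WT, 3 Het and 3 KO samples had been read with QuantSeq 3′ libraries. Per the submitters' notes and the study's methods, the authors used Trim Galore 0.4.5, HISAT2 2.1 on GRCm38, StringTie 1.3.3 and DESeq2, and the deposited signal is a table of counts per gene, each divided by a size factor of its sample. In each sample 100% of the values were whole multiples of 1 read (within 0.01 reads), and the reads so recovered, 3375546 to 4287335 per sample, are estimates, since StringTie's counting derives them from coverage. Of the 37 genes, 35 were counted on loci of the authors' merged assembly.

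limma 3.58.1 (R 4.3.3, eBayes with a trend) was fitted on log2(value + 1) over all genes that reached a value of 10 in 3 or more of the samples compared, using the samples of 2 genotypes at a time. Alternatives were DESeq2 1.42.0 and edgeR 4.0.16 on the recovered reads, TMM factors, pseudocounts of 0.1 and 5, no filter, a fit of all 9 samples, the replicate number as a block, leaving out each sample, and no fold change cutoff. DESeq2 without a filter was added after seeing the data. The scripts were tested on simulated data. Coordinates, coding ends and shared stretches of 50 bases in the last 300 bases of transcripts came from GENCODE vM21. Figures were drawn with matplotlib 3.10.9.

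Values per sample are given for the 3 highest genes of each class, those at an unadjusted p under 0.05, and the 5 largest log2 fold changes in KO against WT. Pathway and marker genes outside the set are given as counts, except that pathway genes at an unadjusted p under 0.05 in KO against WT are named. Tuba1a, Tuba1b, Agbl4, Ttll10, Ttll3 and others are given by range or interval only. The genes, lists and tests were chosen with earlier results of these data known. The marker Insl3 was not analysed here.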

Additional observations from a re-analysis of the deposited data

How the results depend on the processing

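The number of genes of the set called was 0 in all 3 comparisons by limma and stayed 0 under each alternative except DESeq2 in KO against WT, which called 1, Ttll13, with the filter and 1 without it (log2 fold change -2.03, adjusted p = 0.0215). Over all genes, KO against WT gave 5 calls, and 100 with DESeq2, 104 with DESeq2 without the filter, 3 with all 9 samples in 1 fit, 0 with the replicate block and 0 to 49 without each sample, the highest without WT replicate 1. Het against WT gave 0 calls, and 31 with DESeq2, 33 with DESeq2 without the filter, 1 with TMM factors, 2 with a pseudocount of 5, 3 with no filter, 3 with all 9 samples and 0 to 3 without each sample. KO against Het gave 8 calls, and 38 with DESeq2, 46 with DESeq2 without the filter, 4 with all 9 samples, 0 with the replicate block and 0 to 39 without each sample, the highest without Het replicate 2. The cause was not tested. The log2 fold change of Tubb2a in KO against WT was 0.08, and it turned to -0.0064 with DESeq2, -0.020 with DESeq2 without the filter and -0.0043 with edgeR. Leaving out each sample turned the sign in KO against WT of Tubb2a (-0.32 to 0.39), Tubb5 (-0.16 to 0.18), Agbl3 (-0.12 to 0.26), Tuba3b (-0.18 to 0.095) and Tubd1 (-0.020 to 2.21). Of the log2 fold changes of named genes recomputed, 316 kept their direction and call, 12 turned sign and 2 passed the threshold.

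Samples with the same replicate number in different genotypes showed no consistent correlation. With 3 samples per genotype this does not exclude a pairing. The correlations of same-numbered samples' deviations from their group means were 0.17, 0.19 and -0.03 for WT and Het, -0.12, -0.05 and -0.03 for WT and KO, and -0.14, -0.11 and 0.07 for Het and KO, and not every sample correlated best with its own number. Differently numbered samples also reached 0.19 (WT replicate 3 with Het replicate 2, and Het replicate 2 with KO replicate 1). With the replicate block, the genes of the set called stayed at 0. At 3375546 to 4287335 reads per sample, Tubb1, Tubb4a and Tubg2 were too low to compare in any pair of genotypes, and Tubb2b and Agbl1 in KO against Het.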

Other observations

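Several genes of the set lie close to another gene, and the values of the neighbours are given here. Ost4, on the opposite strand inside Agbl5, had 0, 159 and 190 normalized counts in WT, 1019, 160 and 0 in Het and 239, 312 and 0 in KO, so that 3 samples, 1 of each genotype, had 0 reads. Stk16, which overlaps Tuba4a by 1379 bases on the opposite strand, had 293 normalized counts in KO replicate 3 and 23.2 to 68.0 in the other 8 samples. Fam166a overlaps Tubb4b by 121 bases on the opposite strand and had 836 to 1852 normalized counts. Pdrg1, 408 bases from Ttll9 on the opposite strand, had 75.6 to 279 normalized counts, and Rps6kb1, 186 bases from Tubd1 on the opposite strand, had 61.8 to 131.

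The Sertoli cell gene Amhr2 and the sperm tail gene Akap4 split the samples in the same way. Both were low in WT replicate 1, Het replicates 1 and 3 and KO replicates 2 and 3 (3.78 to 15.5 normalized counts for Amhr2 and 45.8 to 137 for Akap4), and both were high in the other 4 samples (519.6 to 624 and 1770 to 2573). Among the genes of the set, Ttll9 was high in 3 of these 4 samples (366 to 516 normalized counts) and at 45.3 in the fourth, WT replicate 2.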
